A study of Homo sapiens with 2 samples.

Results

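The 10 genes described here encode the sensors of the unfolded protein response (UPR), proteins that act with them, and related stress kinases. They are the 4 kinases of the translation factor eIF2α (EIF2AK1, EIF2AK2, EIF2AK3 and EIF2AK4), the IRE1α gene ERN1 with its substrate XBP1, the transcription factors ATF6 and ATF6B, and the proteases MBTPS1 and MBTPS2. They were taken by symbol from a deposited table of 58735 genes, and all 10 were found once. RNA was sequenced from SF-539, a human GBM cell line, stably infected with a lentivirus that carried either the pGIPZ-CTRL control (shControl) or an shRNA against FKBP9 (shFKBP9), selected with puromycin in both cases and kept at passages 15 to 18. There was 1 library per condition. The study made several shRNAs against FKBP9 and the labels do not say which was used here. Its methods speak of stable clones, but do not say whether the sequenced cells came from 1 clone or from several, so a property of that shRNA or of that population of cells cannot be told apart from the loss of FKBP9.

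The endoplasmic reticulum (ER) reports misfolded protein through PERK, IRE1α and ATF6. PERK, the product of EIF2AK3, phosphorylates eIF2α, which slows translation in general while the transcription factor ATF4 is translated more. HRI (EIF2AK1), PKR (EIF2AK2) and GCN2 (EIF2AK4) phosphorylate the same site in response to heme shortage and mitochondrial stress, double-stranded RNA and amino acid shortage. IRE1α cuts a short intron out of XBP1 mRNA in the cytoplasm and so changes the reading frame, which gives the active factor XBP1s. ATF6 and its relative ATF6B travel to the Golgi, where the site-1 protease (MBTPS1) and then the site-2 protease (MBTPS2) release their DNA-binding part. The sensors are switched on at the level of the protein, whereas the values below are the amount of mRNA of each gene. The study asked whether FKBP9, an ER protein, affects this response.

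The sequence on which the IRE1α branch turns is shown first, because the deposited values cannot tell its spliced form from its unspliced one. It lies in exon 4 of transcript XBP1-201 on the minus strand of hg38, within the coding sequence, at chr22:28796108-28796173. The capitals mark the 26 bases that GENCODE release 44 annotates as an intron in another XBP1 transcript.
XBP1 intron: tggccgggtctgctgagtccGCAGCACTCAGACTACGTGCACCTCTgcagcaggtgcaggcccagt
Because the letters at both ends repeat, 7 placements of the intron leave the same spliced transcript. A read must cross these bases to show whether they were removed, and a value per gene adds up reads from everywhere in the transcript.

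Of the 10 genes, 9 had a promoter sequence in the RefSeq table used (GRCh38.p14; 250 bases before to 50 after the start of the gene). EIF2AK1 was not matched. These promoters were searched on both strands for letters that stress pathways are known to use. The ER stress response element, CCAAT and CCACG with 9 bases between them, was found in XBP1 alone among them and in 0.0769% of all 35116 promoters in the table. The interferon-stimulated response element, GAAA and GAAACT with 2 bases between them, was found in EIF2AK2 alone and in 0.273% of all promoters. TGATGNAAT, a form of the C/EBP-ATF response element that ATF4 binds, was found in 0 of the 9 genes and in 0.991% of promoters, and TGACGTGG, a form of the unfolded protein response element, in 0 of the 9 and in 0.729%. The stretches with a match are printed with it in capitals, XBP1 from chr22:28800593-28800681 and EIF2AK2 from chr2:37156975-37157046, both on the minus strand.
XBP1 promoter: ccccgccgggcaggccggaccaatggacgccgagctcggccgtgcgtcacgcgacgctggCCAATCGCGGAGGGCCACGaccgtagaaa
EIF2AK2 promoter: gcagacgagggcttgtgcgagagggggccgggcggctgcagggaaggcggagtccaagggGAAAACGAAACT
A match describes the letters and is not evidence that a factor binds there.

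Values are FPKM, fragments per kilobase of gene length scaled to the size of the library, as deposited. Multiplied by gene length they are whole numbers of fragments, 18116873 in shControl and 17158514 in shFKBP9, and 1 fragment on a gene of 1 kilobase is worth 0.0552 and 0.0582 FPKM. Differences are log2 ratios of shFKBP9 to shControl with 0.1 FPKM added to both. All intervals are exact 95% intervals of the fragments, which cover counting error only. The intervals of ratios are of the fragments alone, without the added 0.1 FPKM, which draws the log2 ratio of a gene at a low level towards 0. With 1 library per condition no difference has a replicate check, and no test between the conditions was made. FKBP9, the target of the shRNA, stood at 49.8 FPKM in shControl and 4.68 in shFKBP9. Of the labelled cell type, glioma cells described as epithelial, 5 of 9 glial and glioma markers reached 1 FPKM, namely VIM (277 and 295 FPKM), CD44 (48.6 and 55.6), EGFR (12.6 and 12.7), NES (2.36 and 2.17) and PDGFRA. PDGFRA had 1.46 and 0.976 FPKM, with a log2 ratio of -0.54 (interval -0.87 to -0.29). The other 4 did not reach it, with 0.791 and 0.712 FPKM for OLIG2, 0.196 and 0.139 for GFAP, 4 and 7 fragments for SOX2, and 0 and 1 for S100B. Of 5 epithelial markers, 1 reached 1 FPKM (KRT8, 1.28 and 1.09), EPCAM had 0.241 and 0.324, and CDH1 had 0 and 1 fragments. Of 3 neuronal markers, 1 reached 1 FPKM (SNAP25, 4.98 and 5.76). Of the 4 immune and 3 endothelial markers, 0 did, and their summed levels were 0.353 and 0.293, and 0.130 and 0.222 FPKM.

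XBP1 had the highest level of the 10 genes and ERN1, whose product cuts its mRNA, the lowest. XBP1 (ENSG00000100219, chromosome 22, 28794555 to 28800597) had 29.1 FPKM in shControl and 31.3 in shFKBP9. ERN1 (ENSG00000178607, chromosome 17, 64039142 to 64130819) had 0.717 FPKM in shControl and 0.804 in shFKBP9, the only one of the genes under 1 FPKM in both libraries. The highest level was 40.6 times the lowest in shControl and 38.9 times in shFKBP9. Among protein-coding genes with a fragment, 30.3% lay below ERN1 and 90.2% below XBP1 in shControl.

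The order of the 10 levels was the same in both libraries: XBP1, ATF6B, EIF2AK1, MBTPS1, EIF2AK4, ATF6, EIF2AK2, MBTPS2, EIF2AK3 and ERN1. Neighbours in that order had separate counting intervals except EIF2AK4 and ATF6 in shControl, and ATF6 and EIF2AK2 as well as EIF2AK2 and MBTPS2 in shFKBP9. The order of levels depends on the length by which fragments are divided. With the length of the GENCODE canonical transcript in place of the deposited gene length, MBTPS1 moved from place 4 to place 2 and MBTPS2 from place 8 to place 6 in both libraries, while XBP1 stayed first, EIF2AK4 stayed at place 5, EIF2AK3 stayed at place 9 and ERN1 stayed last. MBTPS1, for example, has a deposited length of 10238 bases and a canonical transcript of 4377 bases. The differences between libraries do not depend on this length, apart from the small addition of 0.1 FPKM.

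**Figure D1:**
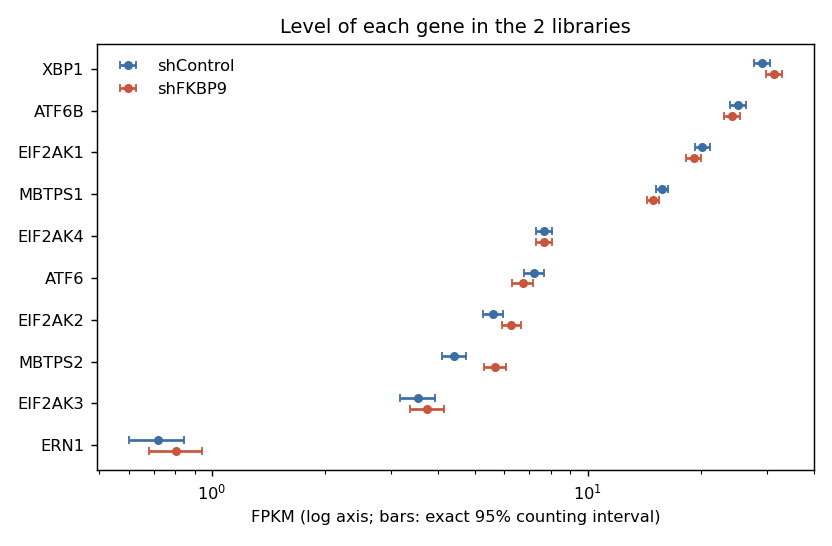
Level of each gene in FPKM (log axis) in the shControl and shFKBP9 libraries, with exact 95% counting intervals as bars. The order from XBP1 at 29.1 and 31.3 FPKM down to ERN1 at 0.717 and 0.804 is the same in both libraries, and the bars of the libraries are clear of each other for MBTPS2 alone.

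Of the 10 genes, 0 differed by more than 2-fold between the libraries, against 4.21% of the 12741 genes that reached 1 FPKM in at least 1 library (2.02% higher and 2.19% lower in shFKBP9). Of the 10 genes, 9 reached that level. Among the 8591 genes with a total of 291 to 5548 fragments, the range of the 10 genes, 0.163% were past 2-fold, so that 0 of 10 is near the background. The log2 ratio was above 0 for 5 genes and below 0 for the other 5, with a median of 0.039. Without ERN1, which did not reach 1 FPKM, the median was -0.0045, beside -0.018 over the 12741 genes that did. The counting interval excluded 0 for 4 of the 10 genes, against 30.8% of all 17105 genes with at least 10 fragments. It lay above 0 for MBTPS2, EIF2AK2 and XBP1, 3 of 10 genes, against 13.8%. It lay below 0 for MBTPS1, 1 of 10 genes, against 16.9%. XBP1 lost its call with TPM in place of FPKM, MBTPS1 with median scaling, and XBP1, EIF2AK2 and MBTPS1 with a 99% interval. Among the 8591 genes with as many fragments, 41.6% had an interval off 0, 19.1% above and 22.5% below, so that 4 of 10 genes is near the background. All 10 log2 ratios lay inside the middle 95% of these 8591 genes, which ran from -0.41 to 0.41. The widest bounds of any of the 10 intervals were -0.23 and 0.51, or 0.853-fold and 1.42-fold, so that each of the 10 intervals lay inside 2-fold.

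**Figure D2:**
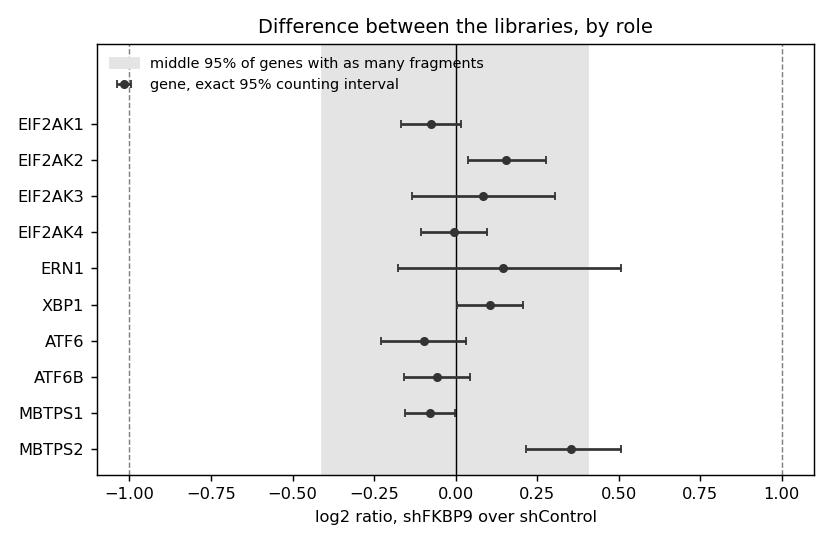
Log2 ratio of shFKBP9 to shControl for each gene, ordered by role, with exact 95% counting intervals. The grey band is the middle 95% of genes with as many fragments (-0.41 to 0.41) and dashed lines mark 2-fold. MBTPS2 at 0.35 is the farthest from 0, and all 10 points lie in the band.

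Among the eIF2α kinases, the interval of PKR mRNA lay above 0 and those of the other 3 included 0, so that 1 of 4 was called beside a background of 19.1% above 0. EIF2AK2 (ENSG00000055332, chromosome 2, 37099210 to 37157065) had 5.61 FPKM from 1092 fragments in shControl and 6.26 FPKM from 1155 fragments in shFKBP9. Its log2 ratio was 0.16 (interval 0.037 to 0.28), a level 11.5% higher, and 80.1% of genes with as many fragments had a log2 ratio no larger. The interval included 0 at 99%. PKR is the kinase that viral or other double-stranded RNA activates, and it is itself induced by interferon.

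EIF2AK3 (ENSG00000172071, chromosome 2, 88556741 to 88627576), the gene of the ER sensor PERK, had 3.53 FPKM from 347 fragments in shControl and 3.74 FPKM from 349 fragments in shFKBP9, and the bounds of its log2 ratio were -0.13 and 0.30. Its level was the lowest of the kinases in both libraries. EIF2AK1 (ENSG00000086232, chromosome 7, 6022244 to 6059230), which encodes HRI, had the highest level of the kinases, with 20.2 FPKM from 2031 fragments in shControl and 19.2 FPKM from 1828 in shFKBP9. The log2 ratio of EIF2AK1 was -0.075 (interval -0.17 to 0.017), and with TPM its interval lay below 0.

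EIF2AK4 (ENSG00000128829, chromosome 15, 39934146 to 40035591), which encodes the amino acid sensor GCN2, had the most similar values of the 10 genes. Its 7.67 FPKM from 1661 fragments in shControl and 7.65 FPKM from 1570 in shFKBP9 gave a log2 ratio of -0.0045 (interval -0.10 to 0.096). Summed over the 4 kinase genes, the log2 ratio of fragments was 0.011 (interval -0.046 to 0.068).

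The kinases can also be compared as shares of the family's fragments, a measure that does not depend on how the libraries were scaled. EIF2AK2 held 21.3% of them in shControl (interval 20.2 to 22.4) and 23.6% in shFKBP9 (22.4 to 24.8). EIF2AK1 held 39.6% (38.2 to 40.9) and 37.3% (35.9 to 38.7). EIF2AK4 held 32.4% and 32.0%, and EIF2AK3 6.76% and 7.12%. As shares of the summed FPKM, which take the deposited gene length into account, EIF2AK1 held 54.6% and 52.1%, EIF2AK4 20.7% and 20.8%, EIF2AK2 15.2% and 17.0%, and EIF2AK3 9.53% and 10.2%. With the length of the canonical transcript, EIF2AK4 held 31.7% and 31.8% and EIF2AK1 48.7% and 46.5%.

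Change was also compared between genes of the same group in 9 pairs, with intervals not adjusted for that number. Among the 6 pairs of kinases, the log2 ratio of EIF2AK2 was above that of EIF2AK1 by 0.23 (interval 0.081 to 0.39) and above that of EIF2AK4 by 0.16 (0.0047 to 0.32). The other 4 intervals included 0. For EIF2AK2 against EIF2AK3 the difference in log2 ratio was 0.073 (-0.18 to 0.32), so the fragments do not show whether PKR and PERK mRNA differed in their response.

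In the IRE1α branch, values of sensor and substrate were both slightly higher in shFKBP9. ERN1 was counted with 141 fragments in shControl and 150 in shFKBP9, the fewest of the 10 genes, and its interval was accordingly the widest (log2 ratio 0.15, interval -0.18 to 0.51). XBP1 had 1596 and 1628 fragments, with a log2 ratio of 0.11 and an interval (0.0049 to 0.21) whose lower bound nearly touched 0. Summed over both genes, the log2 ratio of fragments was 0.11 (interval 0.014 to 0.21), and most of those fragments were of XBP1. With TPM in place of FPKM, the interval of XBP1 itself included 0. The log2 ratio of ERN1 was above that of XBP1 by 0.061 (-0.30 to 0.42). The pseudogene XBP1P1 on chromosome 5, which carries a copy of the mRNA, held 7 and 6 fragments, too few to alter the value of XBP1.

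The ATF6 pair was lower in shFKBP9 in both genes, by less than counting error. ATF6 (ENSG00000118217, chromosome 1, 161766294 to 161964070) had 7.19 FPKM from 1027 fragments in shControl and 6.71 FPKM from 909 in shFKBP9, a log2 ratio of -0.098 with bounds of -0.23 and 0.031. ATF6B (ENSG00000213676, chromosome 6, 32115264 to 32128253), whose product is the weaker activator of the pair, had 25.2 FPKM from 1655 fragments and 24.2 FPKM from 1508, a log2 ratio of -0.057 (-0.16 to 0.044). ATF6B made up 77.8% of the pair's FPKM in shControl and 78.3% in shFKBP9. Summed over the pair, the log2 ratio of fragments was -0.073 (-0.15 to 0.0065). The log2 ratio of ATF6B was above that of ATF6 by 0.042 (-0.12 to 0.21).

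The largest difference among the 10 genes was that of the site-2 protease, whose partner in the same pathway did not share it. MBTPS2 (ENSG00000012174, chromosome X, 21839636 to 21885424) had 4.40 FPKM from 712 fragments in shControl and 5.66 FPKM from 867 fragments in shFKBP9. The log2 ratio was 0.35 (interval 0.22 to 0.51), a level 28.4% higher. Of the 8591 genes with as many fragments, 3.93% had a larger log2 ratio. MBTPS1 (ENSG00000140943, chromosome 16, 84053761 to 84116906) had 15.8 FPKM from 2924 fragments in shControl and 14.9 FPKM from 2624 fragments in shFKBP9. Its log2 ratio was -0.079 (interval -0.16 to -0.0029), and the interval included 0 with median scaling.

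MBTPS2 held 19.6% of the fragments of the protease pair in shControl (interval 18.3 to 20.9) and 24.8% in shFKBP9 (23.4 to 26.3), intervals that did not overlap. The log2 ratio of MBTPS2 was above that of MBTPS1 by 0.44 (0.28 to 0.60), the largest of the 9 pairs compared. For both proteases together, the log2 ratio of summed fragments was 0.018 (-0.049 to 0.085). MBTPS2 and EIF2AK2 are on the list of ER stress and UPR genes that the study itself picked as higher in these libraries, so their direction is not independent evidence.

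**Figure D3:**
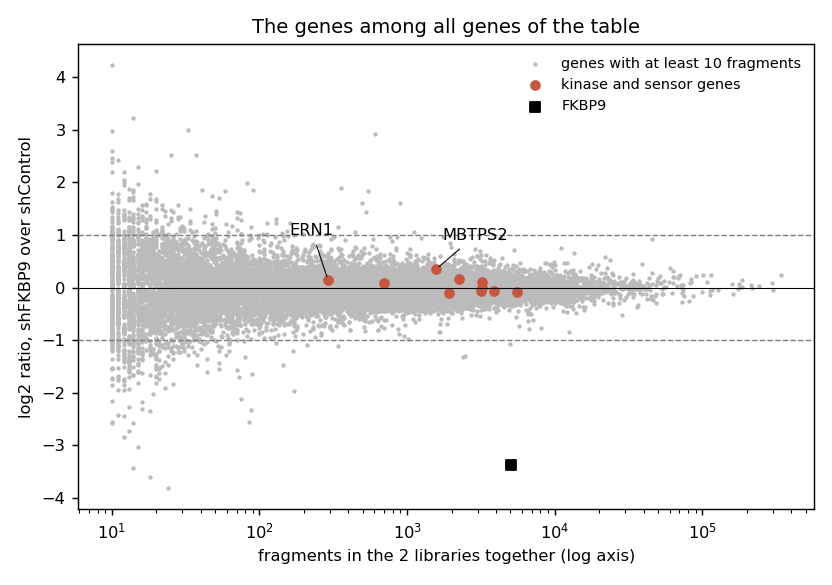
Log2 ratio against the number of fragments in both libraries together (log axis) for all genes with at least 10 fragments. The kinase and sensor genes sit close to 0 within the cloud, between 291 fragments for ERN1 and 5548 for MBTPS1, and FKBP9 lies far below it at -3.38.

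Rows of the table that overlap a gene can take or lose its reads, since the library kit named in the labels does not mark strand. For these rows the log2 ratio is given without the added 0.1 FPKM. In all, 16 rows overlapped 8 of the 10 genes, and XBP1 and ERN1 had none. Most held few or no fragments. Next to EIF2AK1 on the opposite strand lies AIMP2, which shares 1591 bases with it and had 477 fragments in shControl and 440 in shFKBP9. GPATCH11, which shares 35 bases with EIF2AK2 at its 3′ end, had 454 and 538 (log2 ratio 0.32, interval 0.14 to 0.51). YY2, which lies within MBTPS2 on the same strand, had 29 and 41 (0.58, -0.14 to 1.31). TNXB, which shares 71 bases with ATF6B on the same strand, had 47 and 24 (-0.89, -1.67 to -0.15). At the start of EIF2AK3, the antisense row AC062029.1 had 18 and 32 fragments (0.91, 0.030 to 1.83). GPATCH11, AC062029.1 and TNXB were the 3 overlapping rows with an interval off 0, and the part of these rows in the values of EIF2AK2, EIF2AK3 and ATF6B was not tested.

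The genes that act just before and after these sensors were described as lists, and nothing is called particular to a list. Their counts are to be read against the shares given above and against those of the 1236 genes with over 5548 fragments, of which 30.7% had an interval above 0 and 39.8% below, since small ratios pass in deeply counted genes. Of the 8 genes of eIF2 and its exchange factor eIF2B, the interval lay below 0 for 4 and above 0 for 1, and it included 0 for 3 (background 22.5% below and 19.1% above at 291 to 5548 fragments; 2 of the 8 were deeper). EIF2S1, which encodes eIF2α, the substrate of all 4 kinases, had 31.0 FPKM in the control library and 26.9 in the knockdown (a log2 ratio of -0.20, bounds -0.28 and -0.13). EIF2S2, which encodes the β subunit, had 2888 and 3418 fragments (0.32, 0.25 to 0.39). The 6 genes listed for the eIF2α phosphatases included NCK1, which encodes an adaptor and not a phosphatase subunit. Of these 6, 3 had an interval above 0, NCK1 among them, and 0 below. The background above 0 was 19.1% at 291 to 5548 fragments and 30.7% for the 2 of the 6 that were deeper. PPP1R15A, the inducible subunit GADD34 that brings the phosphatase to eIF2α, had 11.4 and 15.2 FPKM (0.41, 0.26 to 0.56), whereas its constitutive relative PPP1R15B had 8.85 and 8.41 (-0.073, -0.22 to 0.070).

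Of 11 genes that regulate the kinases, the interval was below 0 for 5 and above 0 for 2. Of these 11 genes, 5 had over 5548 fragments, where 39.8% of genes lay below, and 4 of the 5 lower genes were among them. GCN1, the ribosome-bound activator of GCN2, had 27.8 and 23.5 FPKM (-0.24, -0.30 to -0.18). IMPACT, an inhibitor of GCN2, had 6.51 and 7.56 FPKM (0.21, 0.050 to 0.38). DNAJC3, a chaperone also known as P58IPK that inhibits PKR and PERK, had 13.1 and 13.4 FPKM (0.037, -0.075 to 0.15). HSPA5, the chaperone BiP that holds the sensors inactive, had 403 and 372 FPKM (-0.12, -0.14 to -0.091).

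Of 12 genes for ATF4, CHOP and their targets, 10 had an interval above 0 and 1, CEBPB, below 0, and 11 had at least 1 FPKM, with a median log2 ratio of 0.43. Of the 12, 3 had over 5548 fragments, where 30.7% of genes lay above 0 and 39.8% below. At 291 to 5548 fragments the shares were 19.1% and 22.5%, and over all genes with at least 10 fragments 13.8% and 16.9%. CHAC1, which degrades glutathione, was past 2-fold (2.07 and 7.92 FPKM, log2 ratio 1.89), the only gene of all these lists that was. TRIB3, a pseudokinase induced by ATF4 and CHOP, had 2.86 and 3.61 FPKM (0.33, 0.042 to 0.63). The study had picked ATF4, DDIT3 and CHAC1 as higher in these libraries, so for them the direction follows from that choice. No difference between this list and the kinases was tested.

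In the IRE1α branch, 2 of the 10 partner genes with at least 10 fragments had an interval above 0 and 2 below. The background was 19.1% above and 22.5% below at 291 to 5548 fragments, and 0 of the partners were deeper, so these counts are near it. RTCB, the ligase that joins the ends of spliced XBP1, had 40.5 and 39.4 FPKM (-0.041, -0.13 to 0.047). ERN2, the second IRE1 gene, had 3 and 6 fragments. Of 13 XBP1s targets, 8 had an interval above 0 and 2 below, with a median log2 ratio of 0.13. Of the 13, 5 had over 5548 fragments, 2 of them above 0 and 2 below, where the background was 30.7% and 39.8%. The rest had 291 to 5548 fragments, where it was 19.1% and 22.5%. The 8 included DNAJB9, the cochaperone that keeps IRE1α inactive, at 3.52 and 4.85 FPKM (0.45, 0.17 to 0.75), and EDEM1, a gene of ER-associated degradation that the study also picked, at 13.7 and 15.2 FPKM (0.15, 0.050 to 0.24). The 2 lower targets were PDIA6 at 61.0 and 52.1 FPKM (-0.23, -0.29 to -0.16) and RPN1 at 109 and 98.6 (-0.15, -0.19 to -0.098). Of 10 mRNAs listed for IRE1-dependent decay, 8 had an interval above 0 and 0 below, BLOC1S1 among the 8 with 7.87 and 10.3 FPKM (0.38, 0.14 to 0.64). TXNIP, also among the 8, is not an established substrate (138 and 150 FPKM, 0.12, 0.083 to 0.17). Of the 8, 4 had over 5548 fragments, TXNIP among them, where 30.7% of genes lay above 0. The share was 19.1% at 291 to 5548 fragments and 13.8% over all genes.

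Downstream of ATF6, 2 of 11 targets had an interval above 0, HSP90B1 and SEL1L (the latter also picked by the study, and named here to complete the count), and 4 below 0, HSPA5, PDIA4, HYOU1 and SDF2L1, with a median log2 ratio of -0.0018. Of the 11, 7 had over 5548 fragments (background 30.7% above and 39.8% below). The list of other protease substrates held 7 factors cut by MBTPS1 and MBTPS2, and GNPTAB, a phosphotransferase cut by MBTPS1 alone. Of its 7 genes with at least 10 fragments, 0 had an interval above 0 and 2 below, against 16.9% below over all genes, and both had over 5548 fragments, where it was 39.8%. SREBF1 had 22.4 FPKM in shControl and 18.2 in shFKBP9 (-0.30, -0.38 to -0.22) and SREBF2, both being regulators of lipid synthesis, 26.2 and 23.9 (-0.13, -0.20 to -0.062). CREB3L3 had 0 fragments in both libraries. Of 4 partners of the proteases, the interval lay above 0 for 1, below 0 for 2 and included 0 for 1 (background 19.1% above and 22.5% below at 291 to 5548 fragments). INSIG1, the only one with over 5548, had 88.9 and 92.1 FPKM (0.050, -0.0027 to 0.10). SCAP, which escorts the SREBP proteins to them, had 16.9 and 14.3 FPKM (-0.24, -0.34 to -0.15), C12orf49, the older symbol of SPRING1, 7.29 and 6.10 (-0.25, -0.38 to -0.13), and INSIG2, which retains SCAP in the ER, 18.2 and 22.0 (0.27, 0.17 to 0.38).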

How the data were processed

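RNA-Seq of SF-539 cells gave 1 library for shControl and 1 for shFKBP9. The authors removed low-quality reads, aligned paired-end reads to hg38 with HISAT2 2.0.5, counted them per gene with featureCounts 1.5.0-p3 and deposited FPKM with gene positions and lengths; the annotation release is not given in the sources used here. The file held 0 value columns of other samples. FPKM times gene length was a whole multiple of 1 step per library for 100.0% of values above 0 (tolerance 1e-06 fragments). The library sizes behind the deposited FPKM were 0.9994 and 1.0006 times the summed fragments.

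Log2 ratios used 0.1 added to FPKM. Intervals are exact: Clopper-Pearson for ratios and shares, Poisson for levels, conditional for pairs of genes; all cover counting error only. Fragments behind each value of the 10 genes are given with it; for genes of the lists mostly FPKM is printed, and the interval carries their depth. No test was made because nothing estimates the spread between cultures. Genes named are the 10 genes, FKBP9, rows overlapping them, and from each list direct partners, genes past 2-fold and some of the largest ratios with an interval off 0. The genes and lists were chosen with earlier results of these data known. Recovery of fragments and intervals were tested on simulated data. Scripts ran in Python 3.11.15 with scipy 1.17.1, numpy 2.4.6 and pandas 2.3.3, and figures were drawn with matplotlib 3.10.9. Alternatives were 1 or 0.01 added to FPKM, median scaling, TPM, other minimums, a 99% interval, summed pseudogene fragments and, added after the data were seen, canonical transcript length for levels and shares.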

Additional observations from a re-analysis of the deposited data

How the results depend on the processing

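The number of genes past 2-fold was 0 under every alternative run, and the median log2 ratio of the 10 genes ran from 0.022 to 0.056. Median scaling changed the log2 ratios of the 10 genes by 0.015 to 0.017, and TPM by -0.019 to -0.0040. The 41 recomputed log2 ratios of single genes all stayed within their counting intervals, and 1 changed sign, EIF2AK4 with median scaling (0.012). The counts of intervals off 0 depended on the setting. Above 0 they were 3 as reported, 3 with median scaling, 2 with TPM, which loses XBP1, and 1 with a 99% interval, MBTPS2 alone. Below 0 they were 1 as reported, 0 with median scaling, 2 with TPM, where EIF2AK1 joins MBTPS1, and 0 with a 99% interval. Fewer fragments limit ERN1 and EIF2AK3 most. The 20 recomputed medians of the lists stayed within the spread of their genes. No paired analysis was possible because each condition has 1 library.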
